A study of Sus scrofa with 12 samples.

Results

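The genes described here are 10 members of the JAK-STAT pathway, out of 19550 protein-coding genes on the assembled chromosomes of the pig. They comprise the kinases JAK1, JAK2 and TYK2, the transcription factors STAT3, STAT5A and STAT5B, and the feedback and target genes SOCS1, SOCS3, CISH and PIM1. The members were listed by name, all 10 matched the gene table by symbol, and each lay within 50 kb of summits in at least 5 of 6 libraries.

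Chromatin was immunoprecipitated from endometrium, the lining of the uterus, of pregnant pigs with an antibody against C/EBP-β (encoded by CEBPB, a basic leucine zipper transcription factor), and the DNA was sequenced. Per the labels, 3 C/EBP-β libraries came from day 12 of pregnancy and 3 from day 15, and 3 input samples per day, which received no antibody, were not analysed here. The tissue is endometrium, with no breed, age or cell sorting given. Nothing in the labels ties the 3 libraries of a day to different animals. The spread that the p-values rest on is that of these libraries, and may be technical.

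Cytokines such as those of the IL6 family, interferons and prolactin bind receptors that have no kinase of their own. JAK kinases bound to the receptors phosphorylate STAT proteins, which pair, enter the nucleus and switch on target genes. Among these targets are SOCS and CISH proteins, which bind the receptor or the JAK and end the signal, so that the pathway limits itself. In the uterus, signalling through STAT3 is best known for its role in embryo implantation, and C/EBP-β is itself a transcription factor that cytokines of the IL6 family activate.

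Each library gave a list of peak summits, positions 1 bp wide with a score. No reads were counted, and the depth of each library is unknown. The lists held 6557 (day 12 replicate 1) to 70152 (day 15 replicate 1) summits on the chromosomes. The peak names fall into 2 kinds, with and without a directory path, called set A and set B below. Set A consists of day 12 replicate 1 with day 15 replicates 2 and 3. The other 3 libraries, day 15 replicate 1 among them, form set B. Whether the sets were processed differently is not stated, and set A holds the 3 shortest lists. The library part of the peak names omits C/EBP-β for day 12 replicate 1 and day 15 replicate 3. The names of day 15 replicates 2 and 3 are otherwise equal in that part, so whether these 2 lists stem from separate samples was not tested. Counts are therefore also given without each of these libraries. With no cell sorting given, more binding per cell and more cells that carry it cannot be told apart. No expression was measured. Of the marker genes, 3 of 6 epithelial, 3 of 5 stromal, 1 of 6 leukocyte and 0 of 5 neuronal genes had summits within 5 kb in 2 or more libraries on day 12. On day 15 the counts were 4, 5, 1 and 0. Of all protein-coding genes, 38.1% on day 12 and 46.3% on day 15 had summits by the same rule. The epithelial list includes the steroid receptor genes ESR1 and PGR, and PGR was the gene added on day 15. These counts therefore do not measure epithelial content.

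Most of the 10 genes carried summits close to an end, and more of them did so on day 15. A gene counts below as bound on a day when at least 2 of its 3 libraries had a summit within 5 kb of either end. JAK2, STAT3, STAT5A, SOCS1, SOCS3 and PIM1 were bound on day 12, 6 of 10 members, where 38.1% of all protein-coding genes were bound. These 6 and JAK1, TYK2 and CISH were bound on day 15, 9 of 10, where 46.3% of all genes were. STAT5B, with 1 library on each day, was bound on neither. STAT3, SOCS1 and SOCS3 had a summit within 5 kb in all 6 libraries, which 13.1% of all genes had. Bound on both days were 6 members, against 30.5% of all genes. Another 3, JAK1, TYK2 and CISH, were bound on day 15 and not on day 12 (15.8% of all genes), and 0 the other way round (7.61%). The same 6 and 9 members were bound without day 12 replicate 1. Without day 15 replicate 2, STAT5A was no longer bound on day 15, and without replicate 3 CISH was not, which left 8 members in each case, against 36.2% and 42.9% of all genes. Without day 15 replicate 1 both were lost and 7 members stayed, against 34.5%. On day 12, leaving out replicate 2 or replicate 3 left STAT3, SOCS1 and SOCS3, 3 members against 16.6% and 15.0% of all genes. Within 1 kb of an end, JAK2, STAT3, STAT5A and SOCS1 were bound on day 12, 4 of 10 against 21.2% of all genes, and 9 of 10 on day 15 against 36.7%.

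By library, 3, 6 and 9 members had a summit within 5 kb in day 12 replicates 1, 2 and 3, where 17.2%, 38.4% and 54.1% of all genes had one. In day 15 replicates 1, 2 and 3 there were 10, 8 and 8 members, where 64.8%, 44.6% and 37.6% of all genes had one. The order within day 12 follows the length of the lists, and the share among the members lay above that of all genes in each of the 6 libraries. The mean was 6 ± 3 members on day 12 and 8.67 ± 1.15 on day 15 (SD, n = 3 each), a difference of 2.67. Both days overlapped. Within set A the mean was 3 members on day 12 and 8 on day 15, while the share of all genes was 17.2% and 41.1%. Within set B it was 7.5 and 10 members, at 46.3% and 64.8% of all genes. No p is given for these counts because the members were chosen with results of these data known.

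**Figure D1:**
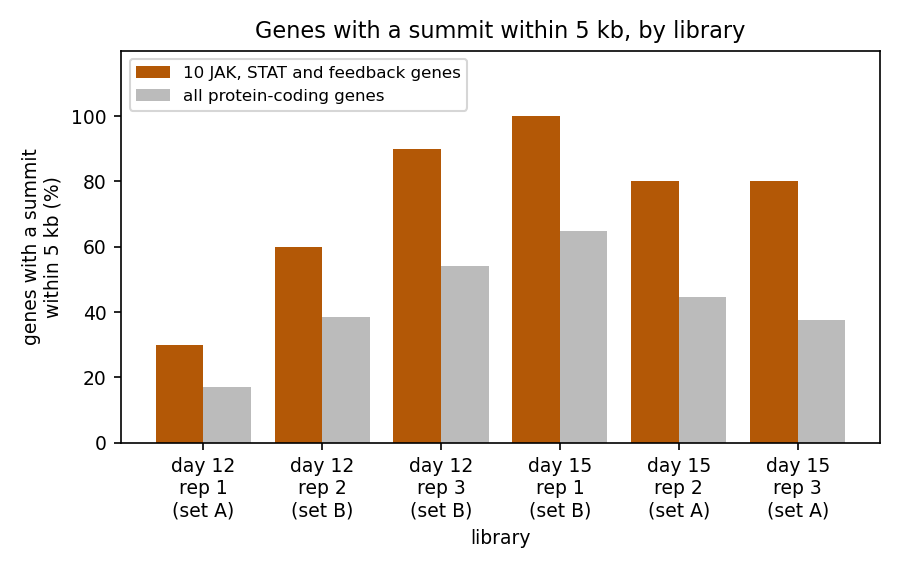
Share of genes with a summit within 5 kb of either end (vertical axis, percent) in each of the 6 libraries (horizontal axis), for the 10 members (brown bars) and for all 19550 protein-coding genes (grey bars). The members stand above all genes in every library, from 30% against 17.2% in day 12 replicate 1 to 100% against 64.8% in day 15 replicate 1.

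**Figure D2:**
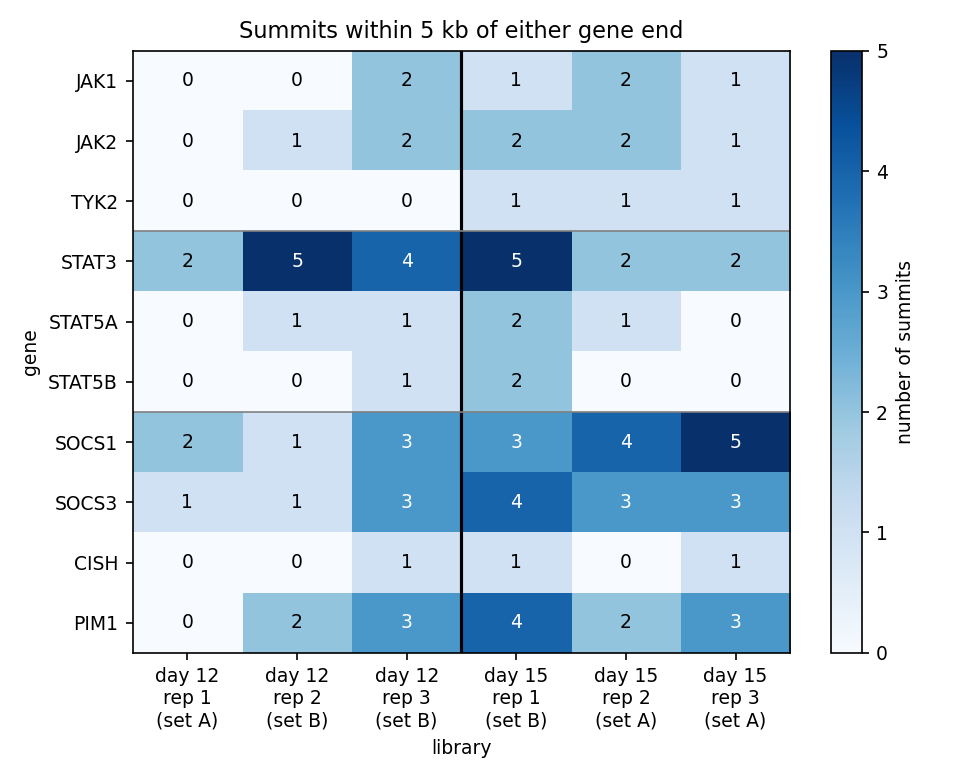
Number of summits within 5 kb of either end of each member (rows) in each library (columns, with set A or B), with darker blue for more summits. STAT3, SOCS1 and SOCS3 have at least 1 summit in all 6 columns, and TYK2 has 1 in each day 15 library and 0 in each day 12 library.

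The 3 kinase genes, which start the signal at the receptor, had 1 of 3 members bound on day 12 and 3 of 3 on day 15. TYK2, the kinase that pairs with JAK1 at type I interferon and IL6 family receptors, had 0 summits within 5 kb in each day 12 library and 1 in each day 15 library. It was the only member with this complete separation, which 2.83% of all genes showed, against 0.0307% in the opposite direction. The summits lay 41, 269 and 90 bp from the upper end of the gene (the end with the higher coordinate; chromosome 2, 69157774 to 69183555). They joined into a region at 69183286 to 69183596, and their scores were low for their lists, at percentiles 27.5, 34.4 and 27.0 in day 15 replicates 1, 2 and 3. With summits of a score of at least 5, only 1 of the 3 day 15 libraries kept a summit there. Day 12 replicate 3 missed the 5 kb limit narrowly, but at the other end of TYK2, with a summit 5714 bp outside the lower end. That summit belonged to a region shared with day 15 replicate 1, which lay nearer to another gene, ICAM3 (1861 bp). Leaving out a library cannot undo such a separation, and was no test of it. Over all genes the share separated within 5 kb with 1 library fewer was 3.19%, 3.38% and 8.04% without day 12 replicates 1, 2 and 3, and 3.34%, 3.40% and 4.66% without day 15 replicates 1, 2 and 3.

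Within 50 kb, TYK2 had 1, 2 and 2 summits in day 12 replicates 1 to 3 and 8, 4 and 4 in day 15 replicates 1 to 3. Here, too, the days did not overlap, with 1.67 ± 0.577 against 5.33 ± 2.31 summits (SD, n = 3 each). A two-sided exact permutation test gave p = 0.1, the smallest that 3 against 3 libraries allow, and an adjusted p of 1 over all 19550 genes (Benjamini-Hochberg). Among all genes, 2.84% had more summits in every day 15 library than in any day 12 library, and 0.0307% the reverse. With 1 library left out the first share was 2.92%, 3.35% and 12.7% without day 12 replicates 1, 2 and 3, and 2.97%, 3.64% and 6.37% without day 15 replicates 1, 2 and 3. Several of the summits lie nearer to other genes. A region in all 6 libraries was 240 bp from an end of ICAM3, which encodes an adhesion molecule of leukocytes. Another, 188 bp from LOC100526209, was present in each day 15 library and no day 12 library. A further one, 174 bp from CDC37, the gene of a kinase chaperone, was present in day 12 replicate 2 and each day 15 library. Per 10000 summits of each list, TYK2 had 1.53, 0.60 and 0.35 on day 12 and 1.14, 2.42 and 3.34 on day 15, and the days overlapped.

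JAK1, the kinase used by most of the receptors in this pathway, had 0, 0 and 2 summits within 5 kb in day 12 replicates 1 to 3 and 1, 2 and 1 in day 15 replicates 1 to 3. All of them lay at the lower end of the gene (chromosome 6, 147320288 to 147567188) and none at the upper end, where RAVER2 overlaps it by 259 bp. A region just outside the gene, at 147320118 to 147320186, was shared by day 12 replicate 3 and day 15 replicates 2 and 3, with score percentiles of 25.1, 85.4 and 75.4. Without day 12 replicate 3, JAK1 joined TYK2 in having a summit in every day 15 and no day 12 library. That held for 8.04% of all genes without this library, against 2.83% with all 6 libraries. The strongest site of JAK1 was deep inside the gene and outside both windows. At 147394620 to 147394651, 74347 bp from the lower end, all 6 libraries had a summit within a span of 32 bp. Its score percentiles were 94.1, 94.7 and 97.3 on day 12 and 98.9, 95.3 and 90.3 on day 15. A further region inside the gene, at 147429139 to 147429172, was present in all 3 day 15 libraries and absent from the 3 of day 12, as were 0.900% of all regions. With equal lists it was left in 1 day 15 library, and with a score of at least 5 in 2.

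JAK1 had 0, 2 and 4 summits within 50 kb on day 12 and 6, 3 and 1 on day 15 (exact permutation p = 0.6, adjusted p = 1). The days overlapped in these numbers, but not per 10000 summits of the list, where JAK1 had 0, 0.60 and 0.69 on day 12 and 0.86, 1.81 and 0.84 on day 15. On that scale 9.51% of all genes were higher in every day 15 library, and JAK1 and PIM1 were the 2 members among them. The share higher in every day 12 library was 3.74%, with 0 members. The exact permutation test gave p = 0.1 for each, and an adjusted p of 0.755 over all genes.

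JAK2, which serves receptors such as those of prolactin and growth hormone, had 0, 1 and 2 summits within 5 kb on day 12 and 2, 2 and 1 on day 15. Day 12 replicate 1, the shortest list, was the library without one, and its nearest summit lay 187800 bp from the gene. In the other 5 libraries a summit lay 10 to 143 bp from the upper end (chromosome 1, 216849744 to 217002310), in a region at 217002167 to 217002422. Its score percentiles were 3.67 and 56.1 in day 12 replicates 2 and 3 and 71.5, 78.2 and 69.9 on day 15. Within 50 kb JAK2 had 0, 3 and 5 summits on day 12 and 6, 2 and 1 on day 15, and the days did not differ beyond their spread (exact permutation p = 1).

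**Figure D3:**
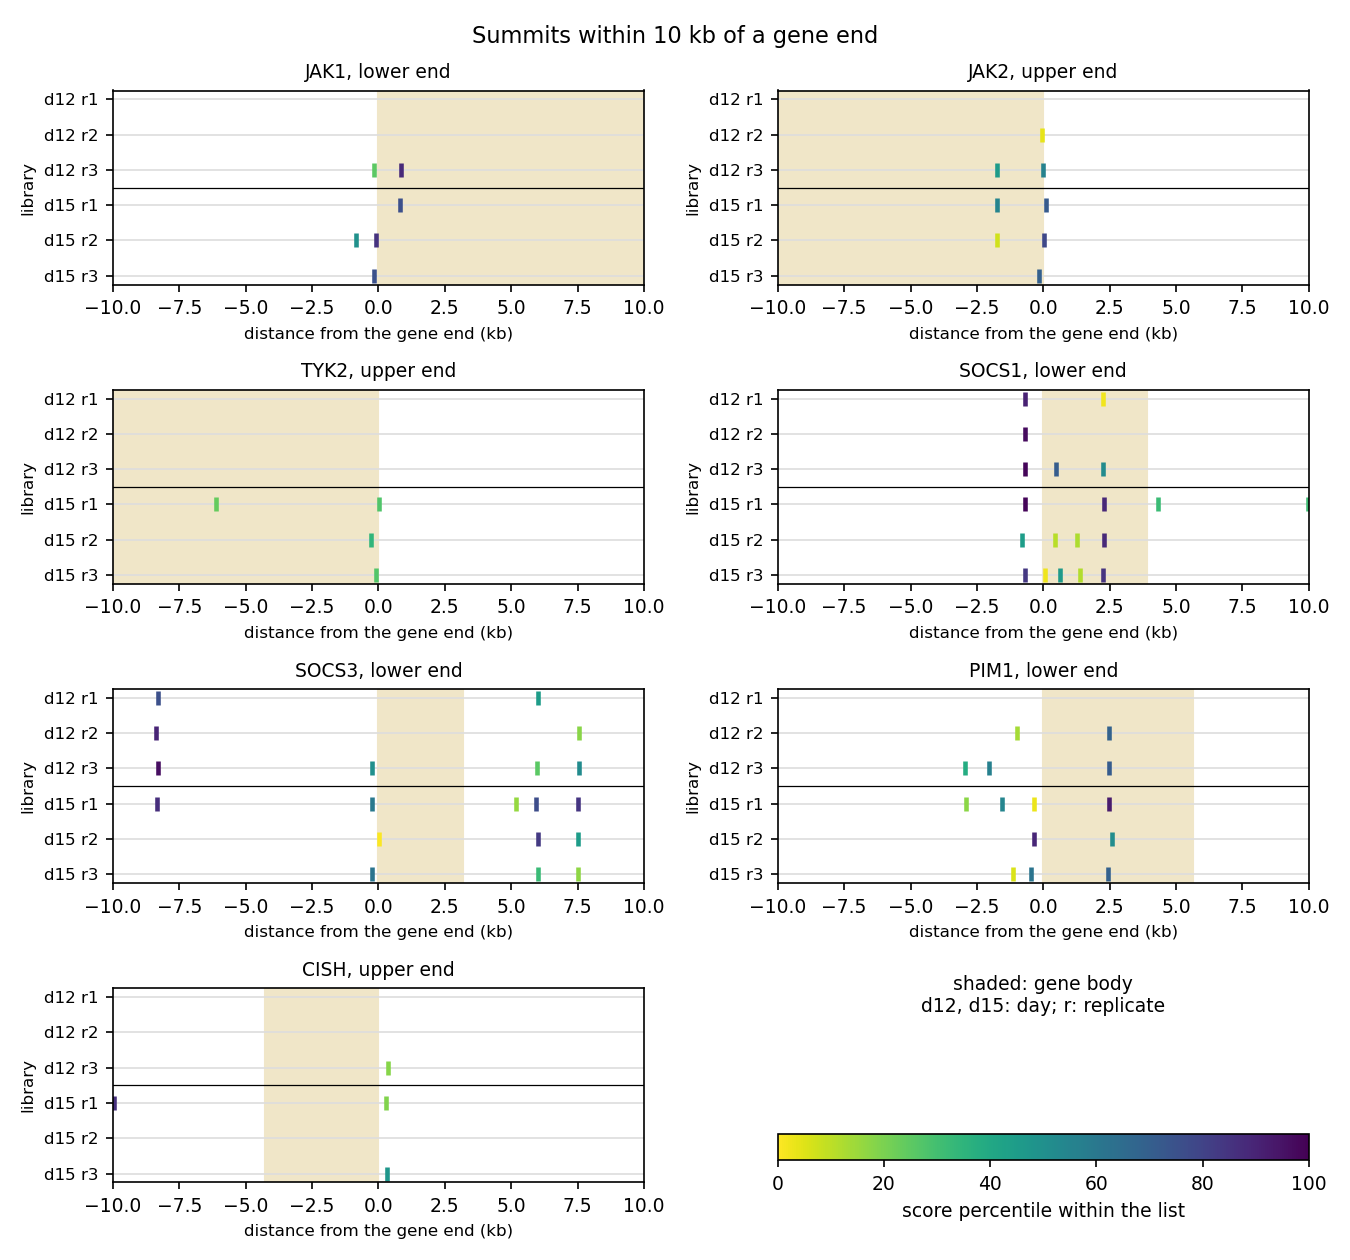
Summits within 10 kb of the named end of 7 members (horizontal axis, kb from that end, gene body shaded) in the 6 libraries (rows), coloured by the percentile of the score within each list (darker for higher). TYK2 has marks in the 3 day 15 rows alone, and SOCS1 has a mark about as far outside its lower end in all 6 rows.

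The 3 STAT genes stand side by side on chromosome 12. STAT3 (20407316 to 20471091) ends 3130 bp before STAT5A (20474221 to 20498785), and STAT5A overlaps STAT5B (20498103 to 20574365) by 683 bp. The same summit therefore often counts for 2 or 3 of them, and their numbers are not independent. STAT3, the factor downstream of IL6 family receptors, had 2, 5 and 4 summits within 5 kb in day 12 replicates 1 to 3 and 5, 2 and 2 in day 15 replicates 1 to 3. No library lacked one, and the days overlapped.

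The strongest site of STAT3 was 988 bp inside its lower end, at 20408280 to 20408329, where 5 libraries placed a summit within a span of 50 bp. Its score percentiles were 86.4, 98.3 and 99.7 on day 12, 98.8 in day 15 replicate 1 and 18.03 in day 15 replicate 3. Day 15 replicate 2 had none there. A second region, 348 bp outside the same end at 20406933 to 20407004, was found in 4 libraries. It ranked at percentile 95.3 in day 15 replicate 2 and 71.1 in replicate 3, both of set A, and at 4.69 and 58.8 in day 12 replicates 1 and 2. Day 12 replicate 3 and day 15 replicate 1 lacked it.

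STAT5A and STAT5B encode 2 closely related factors that prolactin, growth hormone and several interleukins activate. STAT5A had 0, 1 and 1 summits within 5 kb on day 12 and 2, 1 and 0 on day 15. In 4 libraries the summit belonged to 1 region 191 bp inside the lower end of STAT5A, at 20474369 to 20474456, in the stretch that also counts for STAT3. Its score percentiles were 54.3 and 68.6 in day 12 replicates 2 and 3 and 97.0 and 78.4 in day 15 replicates 1 and 2. STAT5B had 0, 0 and 1 summits within 5 kb on day 12 and 2, 0 and 0 on day 15, and the only libraries with one were the 2 with the longest lists.

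Inside STAT5B the picture was denser. Day 12 replicates 1 to 3 had 2, 7 and 12 summits within the gene and day 15 replicates 1 to 3 had 14, 3 and 1. A region 9606 bp inside its upper end, at 20564714 to 20564805, was present in each day 12 library, at percentiles 6.79, 73.6 and 87.4, and in no day 15 library. It was the only such day 12 region within 50 kb of the members, and over all 99058 joined regions 0.139% were of this kind. With equal lists it was left in 1 day 12 library, and with a score of at least 5 in 2. Another region, at 20508686 to 20508818, had the opposite pattern, but 1 day 12 library joined it when summits within 500 bp were combined.

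Within 50 kb, STAT3 had 2, 12 and 20 summits on day 12 and 22, 7 and 4 on day 15, with means of 11.3 ± 9.02 and 11.0 ± 9.64 (SD, n = 3 each, exact permutation p = 1). STAT5A had 1, 11 and 14 against 17, 5 and 1 (exact permutation p = 1), and STAT5B 2, 10 and 18 against 21, 5 and 1 (exact permutation p = 0.9). The 3 libraries of set B were the highest for each of these genes. In 3 of the 6 libraries, day 12 replicates 2 and 3 and day 15 replicate 1, 96.2% or more of all genes had fewer summits within 50 kb than each of the 3. Day 15 replicate 3 was at the other end, with 34.9% of all genes below STAT5A and STAT5B. Day means of these 3 genes were higher on day 12 by 0.333, 1 and 1 summits. Within each of sets A and B they were higher on day 15, as for 53.0% of all genes. But the day 15 lists are the longer ones in both sets. Set A on day 12 and set B on day 15 are 1 library each. For STAT3 the day means were 2 and 5.5 in set A and 16 and 22 in set B. Per 10000 summits, STAT3 had 3.05 on day 12 and 3.79 on day 15 in set A, but 3.53 and 3.14 in set B, and none of the 3 genes was higher on day 15 in both sets.

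**Figure D4:**
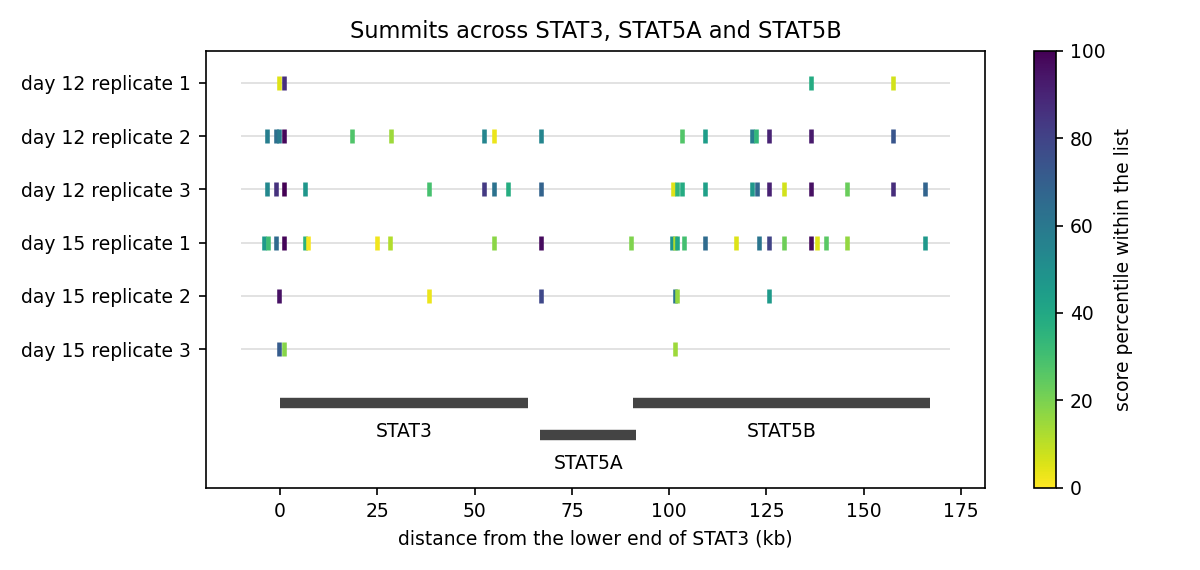
Summits across STAT3, STAT5A and STAT5B (horizontal axis, kb from the lower end of STAT3, with grey bars for the genes) in the 6 libraries (rows), coloured by the percentile of the score within each list. The rows of day 12 replicates 2 and 3 and day 15 replicate 1 are dense, while the other 3 rows are sparse. Within 50 kb of STAT3, a window that differs from the stretch drawn, the former had 12, 20 and 22 summits and the latter 2, 7 and 4.

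The 4 feedback and target genes are short, from 3184 to 5637 bp, so a summit within 5 kb can lie beyond either side. SOCS1 encodes an inhibitor that binds JAK kinases and is induced above all by interferons. It had 2, 1 and 3 summits within 5 kb on day 12 and 3, 4 and 5 on day 15, and 743 bp outside its lower end (chromosome 3, 31879143 to 31883041) lay the only region within 5 kb of a member shared by all 6 libraries. The region spanned 31878338 to 31878462. Its score percentiles were 90.6, 97.0 and 98.6 on day 12 and 98.6, 44.8 and 84.0 on day 15. A second region 1625 bp inside the upper end, at 31881384 to 31881449, was missing in day 12 replicate 2 only. It ranked at 2.21 and 52.1 on day 12 and between 85.0 and 88.7 in the 3 day 15 libraries. Percentiles come from lists of different lengths and cannot establish a change between days.

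SOCS3, the main brake on IL6 family receptors and STAT3, had 1, 1 and 3 summits within 5 kb on day 12 and 4, 3 and 3 on day 15 (chromosome 12, 3643832 to 3647015). Of these 15 summits, 10 formed 2 regions beyond its upper end, 2804 and 4357 bp away at 3649782 to 3649857 and 3651341 to 3651403, each in 5 libraries. Day 12 replicate 2 lacked the nearer one and day 12 replicate 1 the farther one. Another region, 238 bp outside the lower end, was shared by day 12 replicate 3 and day 15 replicates 1 and 3. A region at 3635467 to 3635540 lay on the far side of the 5 kb limit, 8329 bp from the lower end of SOCS3. It was nearer to an end of another gene, PGS1 (6539 bp). Each day 12 library and day 15 replicate 1 had it, at percentiles 75.7 to 96.3. Within 50 kb SOCS3 had 3, 6 and 13 summits on day 12 and 15, 5 and 5 on day 15 (exact permutation p = 0.7), and SOCS1 2, 4 and 8 against 13, 4 and 6 (exact permutation p = 0.6). The days overlapped for both.

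CISH encodes an inhibitor that STAT5 induces and that blocks STAT5 docking sites on receptors. It had 0, 0 and 1 summits within 5 kb on day 12 and 1, 0 and 1 on day 15, all in a region 331 bp beyond its upper end (chromosome 13, 33086280 to 33090540), at score percentiles of 18.3, 18.9 and 47.6. A more constant site stood just outside the 5 kb limit, 8632 bp from the lower end at 33077567 to 33077729, with a summit in all 6 libraries. It ranked at percentiles 10.3, 87.2 and 99.4 on day 12 and 98.0, 12.3 and 71.3 on day 15. Within 50 kb CISH had 1, 2 and 2 summits on day 12 and 4, 2 and 2 on day 15 (exact permutation p = 0.6), in all 13, the lowest total of the members over the 6 libraries.

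PIM1 encodes a serine/threonine kinase that STAT3 and STAT5 induce and that promotes survival and growth of cells. It had 0, 2 and 3 summits within 5 kb on day 12 and 4, 2 and 3 on day 15 (chromosome 7, 32788246 to 32793882). Day 12 replicate 1 had its nearest summit 85474 bp away. The other 5 libraries shared a region 2521 bp inside the lower end, at 32790684 to 32790850, with percentiles of 68.9 and 71.5 in day 12 replicates 2 and 3 and 92.7, 51.4 and 69.2 on day 15. A region 390 bp outside the lower end, at 32787800 to 32787912, was present in each day 15 library and no day 12 library. It ranked at 2.96 in day 15 replicate 1 and at 89.3 and 61.4 in replicates 2 and 3. Within 1 kb of a gene end, PIM1 therefore joined TYK2 as a member with every day 15 and no day 12 library, as 3.90% of all genes did. Day 12 replicate 2 missed this limit narrowly, with a summit 1003 bp away.

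Within 50 kb PIM1 had 0, 2 and 6 summits on day 12 and 10, 4 and 5 on day 15, with means of 2.67 ± 3.06 and 6.33 ± 3.21 (SD, n = 3 each, exact permutation p = 0.3, adjusted p = 1). Its numbers per 10000 summits were 0, 0.60 and 1.04 on day 12 and 1.43, 2.42 and 4.18 on day 15, and did not overlap. When each list was cut to its 6557 highest-scoring summits, PIM1 still had a summit within 5 kb in each day 15 library and now in no day 12 library. This held for 0.292% of all genes, and for 0.292% in the opposite direction. The cut goes deeper in longer lists. Day 12 replicates 2 and 3 held 33294 and 57728 summits, and day 15 replicates 2 and 3 held 16529 and 11960. PIM1 summits at percentiles 68.9 and 71.5 in day 12 replicates 2 and 3 were dropped. One at 69.2 in day 15 replicate 3 was kept. How much of this separation, and of the counts below, comes from the depth of the cut was not tested. TYK2 had 0 in all 6 equal lists. With these equal lists STAT3 and SOCS1 were bound on day 12, 2 of 10 members against 9.68% of all genes. On day 15 JAK1, JAK2, STAT3, STAT5A, SOCS1, SOCS3 and PIM1 were bound, 7 of 10 against 20.3%. STAT3 and SOCS1 were the 2 members with a summit in all 6 equal lists, against 3.53% of all genes.

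**Figure D5:**
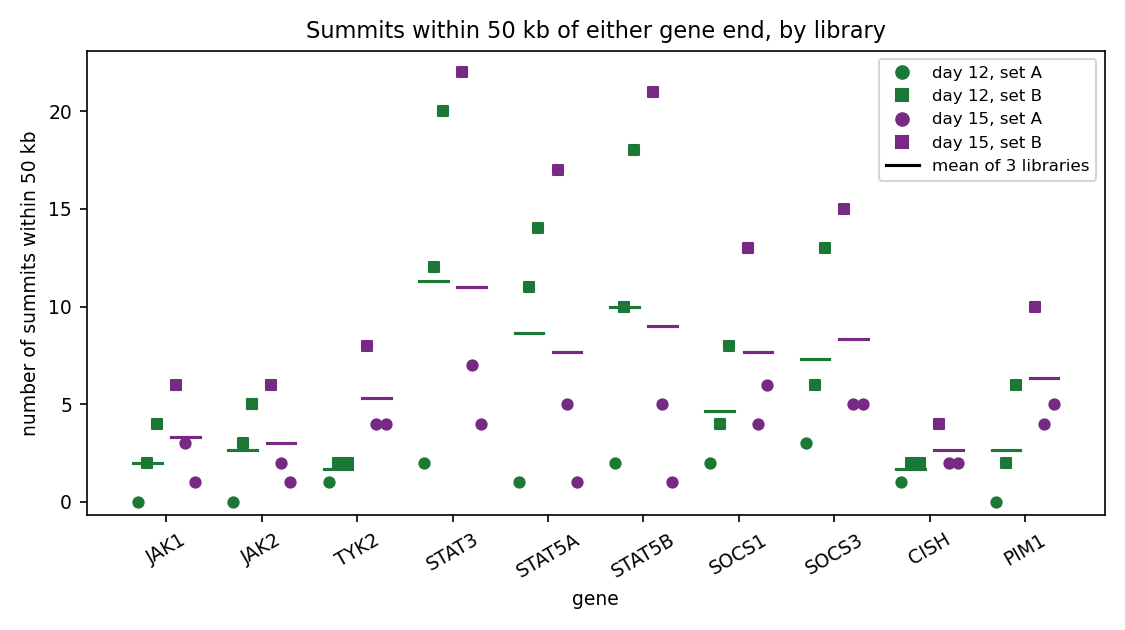
Number of summits within 50 kb of either end of each member (vertical axis) by library, with day 12 in green and day 15 in purple, circles for set A and squares for set B, and lines for the mean of the 3 libraries of a day. For TYK2 the day 15 points (4 to 8) lie above the day 12 points (1 and 2), and for the other 9 members the days overlap.

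Taking the 10 genes together, 11, 38 and 70 different summits lay within 50 kb of a member in day 12 replicates 1 to 3 and 97, 33 and 28 in day 15 replicates 1 to 3. The means of 39.7 ± 29.5 and 52.7 ± 38.5 (SD, n = 3 each) differed by less than the spread. The difference of 13 turned negative without day 12 replicate 1 (-1.33) and without day 15 replicate 1 (-9.17). Per 10000 summits of the list there were 16.8, 11.4 and 12.1 on day 12 and 13.8, 19.96 and 23.4 on day 15. The 3 highest of these values were those of set A, which holds the 3 shortest lists. The scaled values thus still went with list length, and its part in the day difference was not tested. Within 50 kb all 10 members were bound on both days, as were 80.0% of all genes on day 12 and 74.2% on day 15. Of the 10 members, 7 had a higher mean number on day 15 and 3 a lower one, where 52.4% of all genes were higher and 31.4% lower, and the median difference was 1 summit over the members and 0.333 over all genes. Within set A all 10 members had a higher mean on day 15 (61.3% of all genes), and likewise within set B (73.6%). In both sets at once 53.0% of all genes were higher. With numbers per 10000 summits, 4 members (JAK1, TYK2, SOCS1 and PIM1) were higher in both sets, against 28.2% of all genes. No gene in the whole table passed an adjusted p of 0.05 by the exact permutation test, or an unadjusted one, since 3 against 3 libraries cannot reach it.

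The members also differed in summits per length of the window searched. Each library was scaled to 10000 summits so that the 6 lists weigh equally. The mean over the 6 libraries was then 2.90 summits per 100 kb of the 50 kb windows for SOCS3, 2.39 for SOCS1, 2.12 for STAT3, 1.81 for STAT5A, 1.53 for PIM1, 1.52 for STAT5B and 1.24 for TYK2. CISH had 0.947, JAK1 0.400 and JAK2 0.389. The order moved between days: PIM1 had 0.518 on day 12 and 2.53 on day 15 and TYK2 0.655 and 1.83, while STAT5A had 1.94 and 1.68 and STAT5B 1.73 and 1.296. With the lists simply added up, where the longest weigh most, the STAT genes stood higher, at 40.9 summits per 100 kb for STAT3, 39.3 for STAT5A and 32.3 for STAT5B against 35.6 for SOCS1, 25.6 for PIM1 and 16.7 for TYK2. These orders are descriptions, with no test. All 6 libraries had a summit within 50 kb of 7 members, against 40.5% of all genes. JAK1, JAK2 and PIM1 were the exceptions, each with 0 in day 12 replicate 1.

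Summits of different libraries that lay within 200 bp of each other were joined into regions, of which 32 lay within 5 kb of a member. Of these, 9 (28.1%) were seen in 4 or more libraries, against 17.0% of all regions within 5 kb of a protein-coding gene. Another 9 came from 1 library, 28.1% against 46.5%. Within 50 kb there were 125 regions. Of them, 4 had a summit in all 6 libraries, 3.20% against 3.11% around all genes. The 4 were the SOCS1 region, the CISH region outside the 5 kb limit, the one next to ICAM3 near TYK2, and one 46072 bp from SOCS3 at 3597697 to 3597823. The last lies inside PGS1, and its nearest gene end is that of DNAH17, 7435 bp away. Regions with every day 15 and no day 12 library numbered 4 of 125, against 0.900% of all regions, those far from genes included. They were the 2 near TYK2, that of PIM1 and the one inside STAT5B. None of these 4 was present in more than 2 of the 3 day 15 libraries with equal lists.

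The further pathway genes were bound on day 12 about as often as the members (60% of the members) and on day 15 at a lower share (90% of the members), a difference that was not tested. Of 53 further pathway genes 52 were in the gene table, and 34 were bound on day 12 (65.4%) and 36 on day 15 (69.2%). The share of all genes bound was 38.1% on day 12 and 46.3% on day 15. Among the other JAK and STAT genes, 4 of 5 and 3 of 5 were bound. STAT4, which IL12 activates in lymphocytes, had summits within 5 kb in 3 day 12 libraries and 1 day 15 library. Of the other SOCS and PIM genes, 6 of 7 were bound on each day. SOCS2, SOCS4 and PIM3 had a summit in all 6 libraries and PIM2 in 1 of 3 and 3 of 3.

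Receptors had the lowest share bound of the 5 lists of further pathway genes on both days. The counts were 9 of 19 on day 12 and 10 of 19 on day 15, where 38.1% and 46.3% of all genes were bound. IL10RB, a subunit of IL10 family and interferon lambda receptors, had one in 3 day 12 libraries and 1 day 15 library. EPOR, the erythropoietin receptor, and IL6ST had the reverse, 1 of 3 and 3 of 3. CSF3R and IFNAR1 had one in all 6. Of the list of PIAS genes, phosphatases and SH2B3, 6 of 9 were bound on each day. PTPN2, PTPN6 and PTPN11 had a summit in all 6 libraries. Of the STAT target genes, 9 of 12 were bound on day 12 and 11 of 12 on day 15. VEGFA, the angiogenic growth factor, had a summit in 0 of 3 and 3 of 3 libraries, BCL3 in 0 of 3 and 2 of 3, and BCL6, HIF1A and IRF9 in all 6. VEGFA was the only one of the 52 with the complete pattern of TYK2, which 2.83% of all genes had. The rule put genes that differed between days first, so the named genes do not stand for their lists.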

How the data were processed

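The submitters' processing notes name the build susScr11, the peak caller MACS2 2.1.2, the aligner Bowtie2 2.3.5.1 and SAMtools 1.9. How inputs, duplicates and thresholds were handled is not given in the sources used here. The deposited lists give peak summits with a −log10 p-value or q-value as score, which of the 2 is not stated. The score grows with depth and served only to rank or filter within a list. Depth is unknown, so no interval was computed.

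Of 198341 summits, 196220 on 18 autosomes, X and Y were used. Gene ends were read from RefSeq annotation of Sscrofa11.1, which susScr11 also names. It gives no strand, exons or sequence, so distances are to either end and no sequence is shown. Coordinates count from 1. Counts were made with Python 3.11.15, pandas 2.3.3 and NumPy 2.4.6 and tested on simulated lists.

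The number of summits within 50 kb was compared for every gene by a two-sided exact permutation test over 20 splits, with Benjamini-Hochberg adjustment over 19550 genes. Alternatives covered score limits, equal lists, windows, joining distance, leaving out each library and pairing by replicate number. The members and lists were chosen with earlier results of these data known. All members are named. Each further list gives at most 5 genes, first those differing by 2 or more libraries between days, then those in all 6, in alphabetical order. One result under this rule is not reported here. Sets A and B were defined after the peak names were seen.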

Additional observations from a re-analysis of the deposited data

How the results depend on the processing

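Of the alternatives listed, gene starts alone could not be used, since no strand was given. With a score of at least 10, members bound went from 6 to 2 on day 12 (38.1% to 14.0% of all genes) and from 9 to 7 on day 15 (46.3% to 20.3%), the mean on day 15 from 8.67 to 5.67 members, further pathway genes bound from 34 to 14 and 36 to 19, and regions in all libraries from 4 to 0. The members separating the days became 0 within 5 kb and 0 within 50 kb. With a score of at least 5, that separation within 5 kb became 0 and the regions in all libraries 1. Equal lists gave means of 2.33 and 6 members, 2 bound on day 12, 11 and 19 pathway genes and 0 regions. A window of 50 kb gave means of 9 and 10, 10 bound on day 12 and 0 separating members, and 1 kb gave 2. Requiring all 3 libraries of a day gave 3 members and 19 pathway genes on day 12, where no share of all genes was computed. Per 10000 summits, 2 members were higher in every day 15 library.

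Leaving out 1 library moved the mean on day 12 between 4.5 and 7.5 members, the mean on day 15 between 8 and 9 and their difference between 1.17 and 4.17. Members bound ranged from 3 to 6 on day 12 (3 without replicate 2 or replicate 3, when the shortest list had to have a summit) and from 7 to 9 on day 15. Separating members ranged from 1 to 2 within 5 kb and from 1 to 2 within 50 kb (PIM1 beside TYK2 without day 12 replicate 3), regions in all remaining libraries from 4 to 8, and pathway genes from 19 to 34 and from 30 to 36. The difference of summits within 50 kb ranged from -9.17 to 28.2, and was -1.33 without day 12 replicate 1.

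For single genes the difference in summits within 50 kb turned as follows. JAK2 (0.333) ranged from -1.17 to 1.5 and was -1 without day 12 replicate 1. SOCS3 (1) ranged from -2.33 to 3.83, and was -1.17 without day 12 replicate 1 and -0.333 with equal lists. STAT3 (-0.333) ranged from -5.83 to 4 and was 1.67 and 3.17 without day 15 replicates 2 and 3. It was 0.333 with a score of at least 10 and with equal lists, 0.20 per 10000 summits and 4.75 within sets A and B. STAT5A (-1) ranged from -5.67 to 2.33, with 0.167 and 1.67 without day 12 replicates 2 and 3 and 0.333 without day 15 replicate 2, and was 3.25 within sets. STAT5B (-1) ranged from -7 to 3, with 1 without day 15 replicate 2, and was 4 within sets. The causes were not tested.

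The labels do not say whether libraries with the same replicate number belong together. Deviations of same-numbered libraries correlated at -0.57, -0.12 and -0.43 over genes. These values cannot decide it, because each deviation comes from only 3 libraries a day, with lists of very different length. With a replicate block, 1 member had more summits on day 15 in all 3 pairs and 0 on day 12. The share of all genes under this pairing was not computed, so these counts have no background. The differences stayed at 2.67 members and 13 summits.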

Other observations

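The pattern of presence over the 6 libraries within 5 kb was common for some members and rare for others. That of STAT3, SOCS1 and SOCS3, a summit in each library, was shared by 2552 genes. The pattern of JAK2 and PIM1, every library but day 12 replicate 1, was that of 1958 genes, and that of TYK2 of 554. CISH, with day 12 replicate 3 and day 15 replicates 1 and 3, had the rarest, found in 167 genes (0.854%), of which IL4R was the only one among the 52 further pathway genes. JAK1 shared its pattern (day 12 replicate 3 and all 3 day 15 libraries) with PIM2, IL6ST and EPOR. STAT5A shared its own with IFNGR2 and STAT5B with PIAS1.

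Among genes with the same 5 kb pattern, likeness was measured as the summed absolute difference of log2(number within 50 kb + 1) over the 6 libraries. IFT74 matched JAK2 exactly, with 0, 3 and 5 summits on day 12 and 6, 2 and 1 on day 15. MAP3K5 was closest to STAT3 (0.13), ZNF821 to SOCS3 (0.30), R3HDM4 to SOCS1 (0.39), LOC110262036 to PIM1 (0.39) and AP1AR to JAK1 (0.51). KSR1 was closest to STAT5A (0.68), MRPS14 to CISH (0.74), SORBS3 to TYK2 (0.91) and HSD11B1 to STAT5B (1.21). These values describe 6 libraries whose list lengths differ widely, which all genes share.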
